A study of Homo sapiens with 12 samples.

Results

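The APOBEC3 cytidine deaminases are a family of 7 genes, APOBEC3A, APOBEC3B, APOBEC3C, APOBEC3D, APOBEC3F, APOBEC3G and APOBEC3H, taken here by their symbols out of 61533 gene IDs. Their RNA was followed in 3 human cell lines with 4 replicate libraries each. PEO-4 cells are a high-grade serous ovarian carcinoma line grown from ascites after platinum-based therapy had ceased to work. SKOV-3 cells are an ovarian carcinoma line that the sample labels call serous cystadenocarcinoma and the study calls clear cell carcinoma. T1074 cells are ovarian epithelial cells immortalized with SV40, and they served as the non-cancerous line. Each group is 1 line, none was treated, and each grew in its own medium, so the line, its disease, the SV40 immortalization and the medium cannot be told apart. Nothing states that replicates came from separate cultures, so p-values measure the spread between these libraries, which may be technical.

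APOBEC3 enzymes turn cytosine into uracil in single-stranded DNA. They were first known as restriction factors, which damage the DNA copies of retroviruses and hold back retrotransposons. APOBEC3A and APOBEC3B can also act on the genome of the cell itself, where they leave C-to-T and C-to-G changes that are common in many carcinomas. Uracil in DNA is removed by the glycosylase UNG and the base excision repair enzymes that follow it.

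The 7 genes lie head to tail on the plus strand of chromosome 22, within 151 kb (GRCh38, chr22:38952741-39104067, GENCODE 44). In order they are APOBEC3A (38952741 to 38963184), APOBEC3B (38982347 to 38992804), APOBEC3C (39014257 to 39020352), APOBEC3D (39021113 to 39033277), APOBEC3F (39040604 to 39055972), APOBEC3G (39077067 to 39087743) and APOBEC3H (39097224 to 39104067). Each enzyme has 1 or 2 zinc-binding domains, in which a histidine and a pair of cysteines hold the zinc ion. The coding stretch around the cysteine pair of the main transcript was read from GENCODE for each gene. It shows how alike the members are at this site. APOBEC3A, APOBEC3C and APOBEC3H hold 1 such stretch, and APOBEC3B, APOBEC3D, APOBEC3F and APOBEC3G hold 2. Each printed stretch lies inside exon 3 (the only or first domain) or exon 6 (the last domain of a gene with 2), and capitals mark the cysteine codons.
APOBEC3A, only domain, chr22:38961504-38961533: tggagccccTGCttctcctggggcTGTgcc
APOBEC3B, first domain, chr22:38985917-38985946: tggacccccTGCccggacTGTgtggcgaag
APOBEC3B, last domain, chr22:38991449-38991478: tggagccccTGCttctcctggggcTGTgcc
APOBEC3C, only domain, chr22:39017871-39017900: tggagccctTGCccagacTGTgcaggggag
APOBEC3D, last domain, chr22:39031799-39031828: tggagccctTGCccagagTGTgcaggggag
APOBEC3F, first domain, chr22:39045046-39045075: tggacccccTGCccggacTGTgtggcgaag
APOBEC3F, last domain, chr22:39052179-39052208: tggagccctTGCccagagTGTgcaggggag
APOBEC3G, last domain, chr22:39086396-39086425: tggagccccTGCttcagcTGTgcccaggaa
APOBEC3H, only domain, chr22:39101330-39101359: tggagccccTGCtcctccTGTgcctgggag

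The stretch of APOBEC3A was the same as the last stretch of APOBEC3B in 30 of 30 bases. The first stretches of APOBEC3B and APOBEC3F were alike in every base, as were the last stretches of APOBEC3D and APOBEC3F. The cysteine codons stood 12 bases apart in APOBEC3A and in the last domain of APOBEC3B, and 6 bases apart in all other stretches. Of the 75-base words in the main transcript, 26.8% in APOBEC3B, 18.5% in APOBEC3A, 11.6% in APOBEC3D, 9.66% in APOBEC3G and 7.98% in APOBEC3F were also present in another member, against 0.272% in APOBEC3C and 0% in APOBEC3H. Reads came in pairs of 75 bases, and a pair is divided between members by estimate where neither mate tells them apart. The shares of words are therefore not the shares of reads divided. How far this division moves the value of a member was not tested.

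Library totals ran between 19780836 and 55739060 expected counts, the estimated number of fragments per transcript. The shallowest library was T1074 replicate 1, in which protein-coding genes took 65.4% of counts. They took 72.1% to 82.0% in T1074 replicates 2 to 4. Counts were summed by gene and are given as CPM, a count relative to the library's size scaled with TMM factors, with mean ± SD over 4 libraries. Differences between lines come from edgeR's quasi-likelihood test over 19898 genes, with Benjamini-Hochberg adjusted p-values and a threshold of 0.05. The label of T1074 as epithelial was checked against markers. T1074 cells had 0.0964 ± 0.0360 CPM of EPCAM and 0.354 ± 0.0828 CPM of CDH1, the epithelial adhesion genes, but 616 ± 304 CPM of KRT8, 328 ± 161 CPM of KRT18 and 157 ± 76.5 CPM of KRT7, which are epithelial keratins. Of the mesenchymal markers they had 1384 ± 531 CPM of FN1, 634 ± 156 CPM of VIM and 486 ± 295 CPM of COL1A1. They also had 394 ± 286 CPM of COL3A1 and 30.4 ± 12.4 CPM of PDGFRB. COL1A2, at 0.612 ± 0.560 CPM, was the lowest of the 7 listed.

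Both cancer lines had less APOBEC3 RNA than T1074 cells, and SKOV-3 cells had the least. APOBEC3B, APOBEC3C, APOBEC3F and APOBEC3G were lower than in T1074 cells in PEO-4 and in SKOV-3 cells, with APOBEC3B the most reduced in PEO-4 cells. APOBEC3D was somewhat higher in PEO-4 cells and had no count in SKOV-3 cells. APOBEC3A and APOBEC3H were near 0 in all lines and did not pass the filter on low counts, which left 5 of 7 members in the test. All 5 members differed in PEO-4 against T1074, where 74.1% of all genes did, with 4 lower (37.8% of all genes) and 1 higher (36.3%). All 5 were lower in SKOV-3 against T1074, where 67.8% of genes differed, 34.5% lower and 33.3% higher. All 5 were higher in PEO-4 against SKOV-3, where 75.2% of genes differed, 38.5% higher and 36.7% lower. The CPM of the 5 members did not overlap in any of the 3 comparisons. Such separation was found for 33.2% of genes in the higher and 33.4% in the lower direction in PEO-4 against T1074, for 30.5% and 29.8% in SKOV-3 against T1074, and for 38.4% and 37.2% in PEO-4 against SKOV-3. Most genes differed between these lines, so a call alone does not set the family apart.

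**Figure D1:**
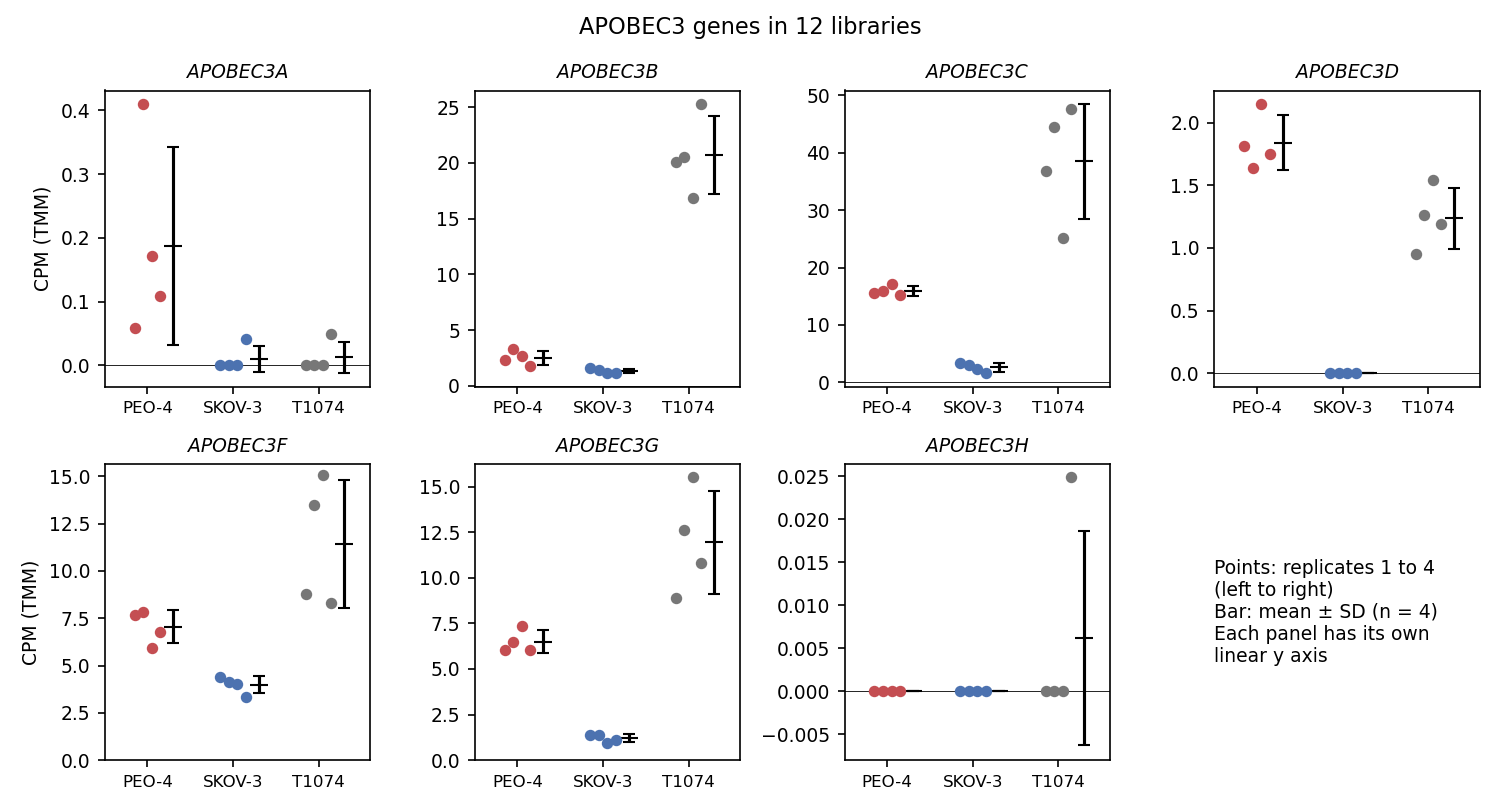
CPM of the 7 APOBEC3 genes in each library (points, replicates 1 to 4 from left to right) with the mean ± SD of 4 libraries (bars), for PEO-4, SKOV-3 and T1074 cells. Each panel has its own linear axis. T1074 libraries stood above both cancer lines for APOBEC3B, APOBEC3C, APOBEC3F and APOBEC3G, and APOBEC3D was at 0 in all 4 SKOV-3 libraries.

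APOBEC3B is a nuclear enzyme with 2 domains, of which the last is catalytic, and it is raised in many carcinomas relative to normal tissue. It had 2.28, 3.31, 2.66 and 1.79 CPM in the PEO-4 libraries and 1.60, 1.42, 1.18 and 1.17 CPM in the SKOV-3 libraries, against 20.1, 20.6, 16.9 and 25.3 CPM in the T1074 libraries. The lowest T1074 library was above every library of the cancer lines. PEO-4 cells were 8.24-fold lower than T1074 cells in mean CPM, with a log2 fold change of -3.04 (SE 0.20, adjusted p = 5.24e-09). SKOV-3 cells were 15.4-fold lower, with a log2 fold change of -3.94 (SE 0.21, adjusted p = 8.82e-10). The cancer lines also differed from each other, with a log2 fold change of 0.90 in PEO-4 against SKOV-3 (SE 0.20, adjusted p = 0.000979).

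APOBEC3C, a restriction factor with 1 domain, was the most abundant member by counts in PEO-4 and T1074 cells. It had 15.5, 15.9, 17.2 and 15.2 CPM in PEO-4 libraries and 3.45, 3.07, 2.31 and 1.60 CPM in SKOV-3 libraries, against 36.8, 44.6, 25.2 and 47.6 CPM in T1074 libraries. PEO-4 libraries lay close together, whereas T1074 libraries were widely spread, with replicate 3 the lowest. No library of one line reached the range of another. The log2 fold change was -1.27 in PEO-4 against T1074 (SE 0.21, adjusted p = 8.81e-05) and -3.88 in SKOV-3 against T1074 (SE 0.24, adjusted p = 4.66e-09). PEO-4 cells were 6.12-fold above SKOV-3 cells in mean CPM, with a log2 fold change of 2.61 (SE 0.23, adjusted p = 1.33e-07).

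APOBEC3G, the member best known for the restriction of HIV lacking Vif, followed a like course. It had 6.06, 6.49, 7.37 and 6.03 CPM in PEO-4 libraries and 1.38, 1.38, 0.921 and 1.13 CPM in SKOV-3 libraries, against 8.88, 12.6, 15.5 and 10.8 CPM in T1074 libraries. The ranges of the 3 lines did not overlap. The log2 fold change was -0.88 in PEO-4 against T1074 (SE 0.18, adjusted p = 0.000464), -3.31 in SKOV-3 against T1074 (SE 0.20, adjusted p = 3.71e-09) and 2.43 in PEO-4 against SKOV-3 (SE 0.20, adjusted p = 5.28e-08). SKOV-3 cells thus had 9.93-fold less APOBEC3G than T1074 cells, and PEO-4 cells 1.84-fold less.

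APOBEC3F, which restricts HIV together with APOBEC3G, differed the least between lines among the members with lower values. It had 7.67, 7.82, 5.95 and 6.79 CPM in PEO-4 libraries and 4.41, 4.15, 4.02 and 3.34 CPM in SKOV-3 libraries, against 8.78, 13.5, 15.1 and 8.33 CPM in T1074 libraries. The T1074 libraries fell into a higher and a lower pair, and the lower pair lay just above the highest PEO-4 library. The log2 fold change was -0.70 in PEO-4 against T1074 (SE 0.19, adjusted p = 0.00456), -1.52 in SKOV-3 against T1074 (SE 0.20, adjusted p = 8.67e-06) and 0.82 in PEO-4 against SKOV-3 (SE 0.20, adjusted p = 0.00153). With counts derived from length-scaled TPM, the last value was 0.43 (adjusted p = 0.0583) and no longer passed.

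APOBEC3D, a restriction factor with 2 domains, was the only tested member with no count in SKOV-3 cells. It had 1.82, 1.64, 2.15 and 1.75 CPM in PEO-4 libraries and 0 counts in all 4 SKOV-3 libraries, against 0.953, 1.26, 1.54 and 1.19 CPM in T1074 libraries. A floor of 3 counts per library is 0.0605 CPM in SKOV-3 cells, so SKOV-3 cells were at least 20.5-fold lower than T1074 cells, and PEO-4 cells were at least 30.4-fold higher than SKOV-3 cells. Both differences passed the test (adjusted p = 3.99e-08 and 1.20e-08). Floors cover counting error only, and none of the 3 annotated APOBEC3D transcripts had a count in SKOV-3 cells. Another annotated protein-coding gene, ENSG00000284554 (39014363 to 39033276), overlaps APOBEC3C and APOBEC3D. It had 0.259 ± 0.376 CPM in PEO-4 and 0.00535 ± 0.0107 CPM in SKOV-3 cells, against 0 in T1074 cells. Whether it takes reads from APOBEC3D was not tested. In PEO-4 against T1074 the log2 fold change was 0.56 (SE 0.23, adjusted p = 0.0449), at the edge of the threshold. It no longer passed without PEO-4 replicate 3 (0.59, adjusted p = 0.0541), without SKOV-3 replicate 2 (0.55, adjusted p = 0.0503), or without T1074 replicate 1 (0.47, adjusted p = 0.101), replicate 2 (0.55, adjusted p = 0.0733) or replicate 4 (0.54, adjusted p = 0.0799), nor in 4 other settings with values between 0.40 and 0.60. Mean TPM was 0.323 ± 0.0789 in PEO-4 and 0.368 ± 0.0685 in T1074 cells, the opposite order, on a scale on which the median log2 ratio of all tested genes was itself -0.78. Library size alone, without TMM factors, kept the direction (0.40, adjusted p = 0.176).

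**Figure D2:**
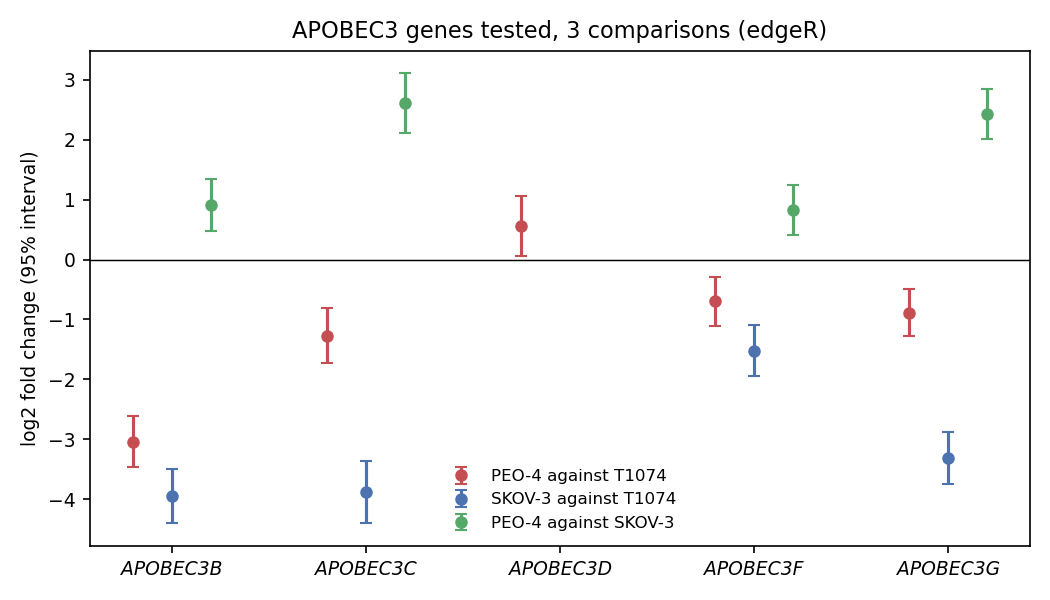
Log2 fold changes of the 5 tested APOBEC3 genes (points) with 95% intervals (bars) in 3 comparisons, from edgeR's quasi-likelihood fit. APOBEC3D in SKOV-3 cells is left out because its count was 0. APOBEC3B is at -3.04 in PEO-4 and -3.94 in SKOV-3 against T1074, whereas APOBEC3F is at -0.70 and -1.52.

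APOBEC3A, a potent deaminase with 1 domain that is mainly known from myeloid cells, was detected at trace level. Its expected counts were 2.03, 17.2, 8.24 and 5.31 in PEO-4 libraries and 0, 0, 0 and 2.01 in SKOV-3 libraries, against 0, 0, 0.14 and 2.27 in T1074 libraries. In CPM the lowest PEO-4 library (0.0586) was above the highest SKOV-3 (0.0410) and T1074 (0.0497) libraries, although each of these 3 values rests on 2 counts after rounding. It did not enter the main test. With no filter beyond 1 count, edgeR gave a log2 fold change of 3.55 in PEO-4 against T1074 (adjusted p = 0.00276) and 3.84 in PEO-4 against SKOV-3 (adjusted p = 0.000886), and DESeq2 gave 3.77 (adjusted p = 0.0168) and 4.22 (adjusted p = 0.0085). APOBEC3H, whose common protein variants differ in stability, had 1 count in 1 T1074 library and 0 in the other 11 libraries.

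Levels of different members were compared by TPM, which accounts for transcript length. The members summed to 4.13, 5.30, 5.94 and 4.95 TPM in PEO-4 libraries and 1.78, 1.69, 1.98 and 1.36 TPM in SKOV-3 libraries, against 19.6, 31.6, 16.1 and 23.5 TPM in T1074 libraries. The TPM scale itself differed between lines, since the median log2 TPM ratio of all tested genes was -0.78 in PEO-4 against T1074 and -0.56 in SKOV-3 against T1074. Relative to that median, the summed APOBEC3 TPM differed by -1.38 in PEO-4 and by -3.18 in SKOV-3 cells on the log2 scale. The order of members also differed. In PEO-4 cells APOBEC3C led with 1.96 ± 0.330 TPM, followed by APOBEC3G with 1.51 ± 0.249 TPM, and their ranges overlapped. APOBEC3F followed at 0.740 ± 0.0294 TPM, below every APOBEC3G value, and then APOBEC3B at 0.493 ± 0.161 TPM, which overlapped APOBEC3D. In SKOV-3 cells APOBEC3F led with 0.660 ± 0.162 TPM, then APOBEC3C with 0.425 ± 0.109, APOBEC3B with 0.308 ± 0.0340 and APOBEC3G with 0.298 ± 0.0275 TPM, each overlapping the next. In T1074 cells APOBEC3C led with 8.75 ± 3.54 TPM, then APOBEC3B with 6.98 ± 1.99 and APOBEC3G with 4.27 ± 1.27 TPM, each overlapping the next, whereas APOBEC3F with 2.32 ± 0.610 TPM lay below APOBEC3G in every library.

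As shares of the summed TPM, APOBEC3B made up 9.58% ± 2.24 in PEO-4 and 18.2% ± 1.39 in SKOV-3 cells, against 30.8% ± 3.26 in T1074 cells. APOBEC3G made up 29.6% ± 1.15 in PEO-4 and 17.7% ± 2.63 in SKOV-3 cells, against 19.3% ± 5.21 in T1074 cells. APOBEC3F made up 14.8% ± 2.30 in PEO-4 and 38.5% ± 4.45 in SKOV-3 cells, against 10.6% ± 3.32 in T1074 cells. APOBEC3C was 38.4% ± 1.16 in PEO-4 and 24.7% ± 3.64 in SKOV-3 cells, against 37.5% ± 6.45 in T1074 cells. These shares are descriptions with no test.

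**Figure D3:**
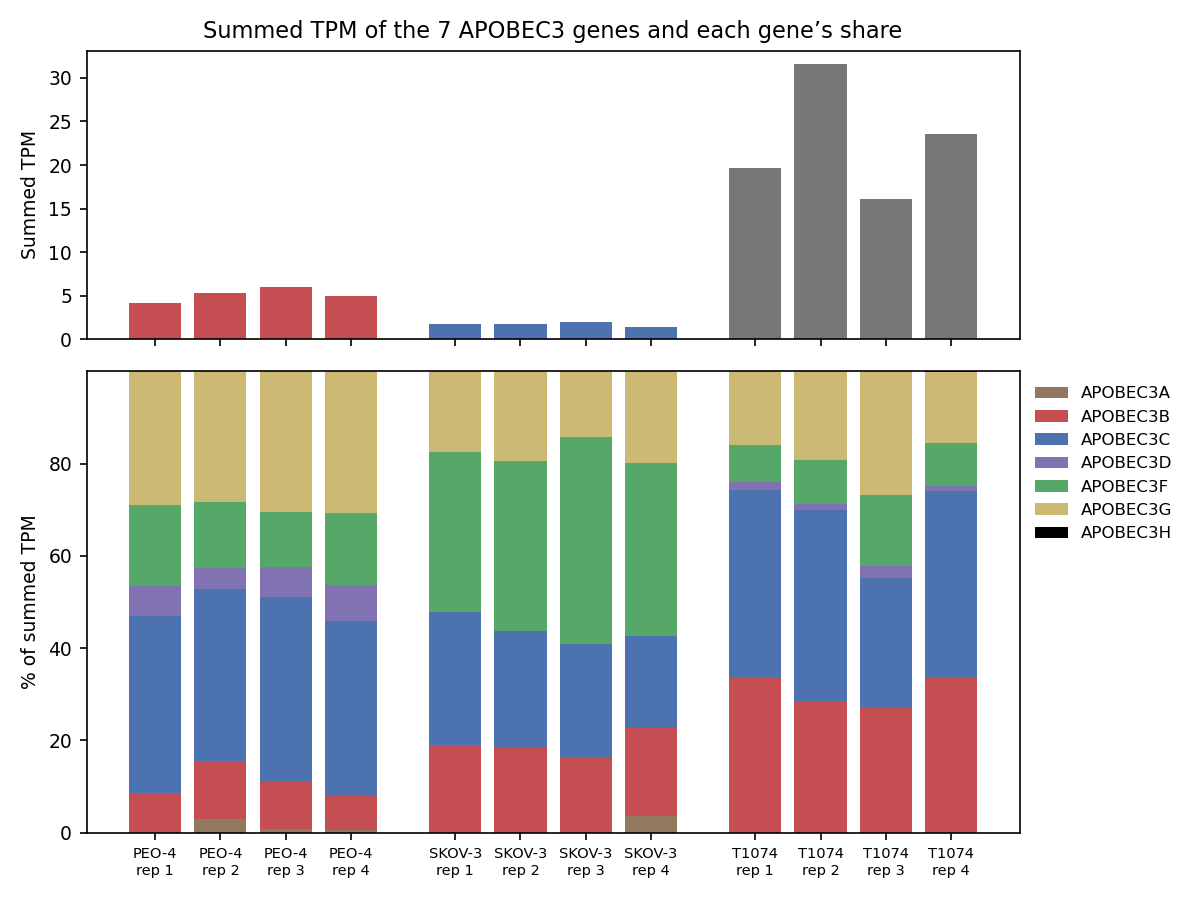
Upper panel, summed TPM of the 7 APOBEC3 genes in each library. Lower panel, each gene as a percentage of that sum. The sum was 5.94 TPM or below in all libraries of the cancer lines, against 16.1 to 31.6 TPM in T1074 libraries, and APOBEC3F held the largest mean share (38.5%) in SKOV-3 cells.

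Each member has several annotated transcripts, and 14 of 32 were abundant enough to test. In PEO-4 against T1074, 8 were lower and none higher, where 41.9% of all transcripts differed, 20.3% lower and 21.6% higher. Leaving out a library gave 5 to 7 lower transcripts, with 5 without PEO-4 replicate 1, 2 or 4 or T1074 replicate 2 or 3. In SKOV-3 against T1074, 12 were lower (36.2% of transcripts differed, 17.3% lower and 18.9% higher). In PEO-4 against SKOV-3, 10 were higher (45% differed, 22.9% higher and 22.1% lower). APOBEC3G had the most transcripts outside its coding form. The coding transcript APOBEC3G-201 held 65.3% ± 1.99 of the counts in PEO-4 and 63.5% ± 6.67 in SKOV-3 cells, against 62.3% ± 6.19 in T1074 cells, and nearly all of the rest fell on transcripts with a retained intron. One of these, APOBEC3G-204, had 26.6, 22.1, 16.6 and 25.5 counts in PEO-4 libraries and 0 in every SKOV-3 library, against 2.77, 20.6, 22.4 and 17.3 in T1074 libraries. It was the one tested transcript outside APOBEC3D with no count in SKOV-3 cells.

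APOBEC3C-202, annotated as a target of nonsense-mediated decay, fell by 1.91 on the log2 scale in PEO-4 against T1074 (SE 0.33, adjusted p = 0.000668). The coding APOBEC3C-201 fell by 1.18 in the same comparison (SE 0.27, adjusted p = 0.00376). The coding form held 94.8% ± 1.10 of APOBEC3C counts in PEO-4 and 85.2% ± 6.67 in SKOV-3 cells, against 91.2% ± 1.83 in T1074 cells. Its share did not overlap between PEO-4 (lowest 93.69%) and T1074 libraries (highest 93.67%), but the gap was very small. The exact two-sided permutation p was 0.0286 (adjusted p = 0.0857), the smallest that 4 against 4 libraries allow. APOBEC3B-201 held 89.7% ± 2.90 in PEO-4 and 93.6% ± 7.10 in SKOV-3 cells, against 95.7% ± 0.857 in T1074 cells, with the same exact p of 0.0286 in PEO-4 against T1074. This smallest p was also reached in PEO-4 against SKOV-3 by APOBEC3C-201, with a difference of 9.55 percentage points, and by APOBEC3F-201, with 6.57 (exact permutation p = 0.0286, adjusted p = 0.0857 for each). None of the 12 tests of leading-transcript shares passed after adjustment. A single test at the smallest p could not have passed on its own, so this outcome says little. The antisense gene APOBEC3B-AS1 had no count in any library.

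The members were set beside genes of their pathway and genes known to govern them. The counts of each list below stand beside these shares of all genes tested. In PEO-4 against T1074, 37.8% of all genes were lower and 36.3% higher. The shares were 34.5% and 33.3% in SKOV-3 against T1074, and 36.7% and 38.5% in PEO-4 against SKOV-3. APOBEC3 genes are classically interferon-responsive, to different degrees. Of 22 interferon response genes tested, 17 were lower and 1 higher in PEO-4 against T1074 (median log2 fold change -1.53, against -0.01 for all genes). In SKOV-3 against T1074, 18 were lower and 1 higher (median -3.25, against -0.03), and in PEO-4 against SKOV-3, 16 were higher and 2 lower (median 1.64, against 0.05). IFI44L, an interferon-induced gene, averaged 30.6 ± 14.6 CPM in PEO-4 and 1.17 ± 0.458 CPM in SKOV-3 cells, against 131 ± 125 CPM in T1074 cells. The 22 genes together reached 1243, 2268, 1653 and 1257 CPM in PEO-4 libraries and 681, 729, 730.5 and 641 CPM in SKOV-3 libraries, against 1740.2, 3592, 8416 and 4098 CPM in T1074 libraries. The lines thus stood in the same order as for APOBEC3B, APOBEC3C, APOBEC3F and APOBEC3G, with T1074 replicate 1 inside the PEO-4 range.

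Among the T1074 libraries, replicate 3 had the most interferon-response RNA, the most APOBEC3G (15.5 CPM), APOBEC3F (15.1 CPM) and APOBEC3D (1.54 CPM), and the least APOBEC3B (16.9 CPM) and APOBEC3C (25.2 CPM). Replicate 1 had the least interferon-response RNA and the least APOBEC3G (8.88 CPM) and APOBEC3D (0.953 CPM). These are 4 libraries of 1 line, and the part of the interferon genes in the differences between lines was not tested. Without T1074 replicate 3, and in every other setting run, APOBEC3B, APOBEC3C, APOBEC3F and APOBEC3G stayed lower and called in both cancer lines.

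**Figure D4:**
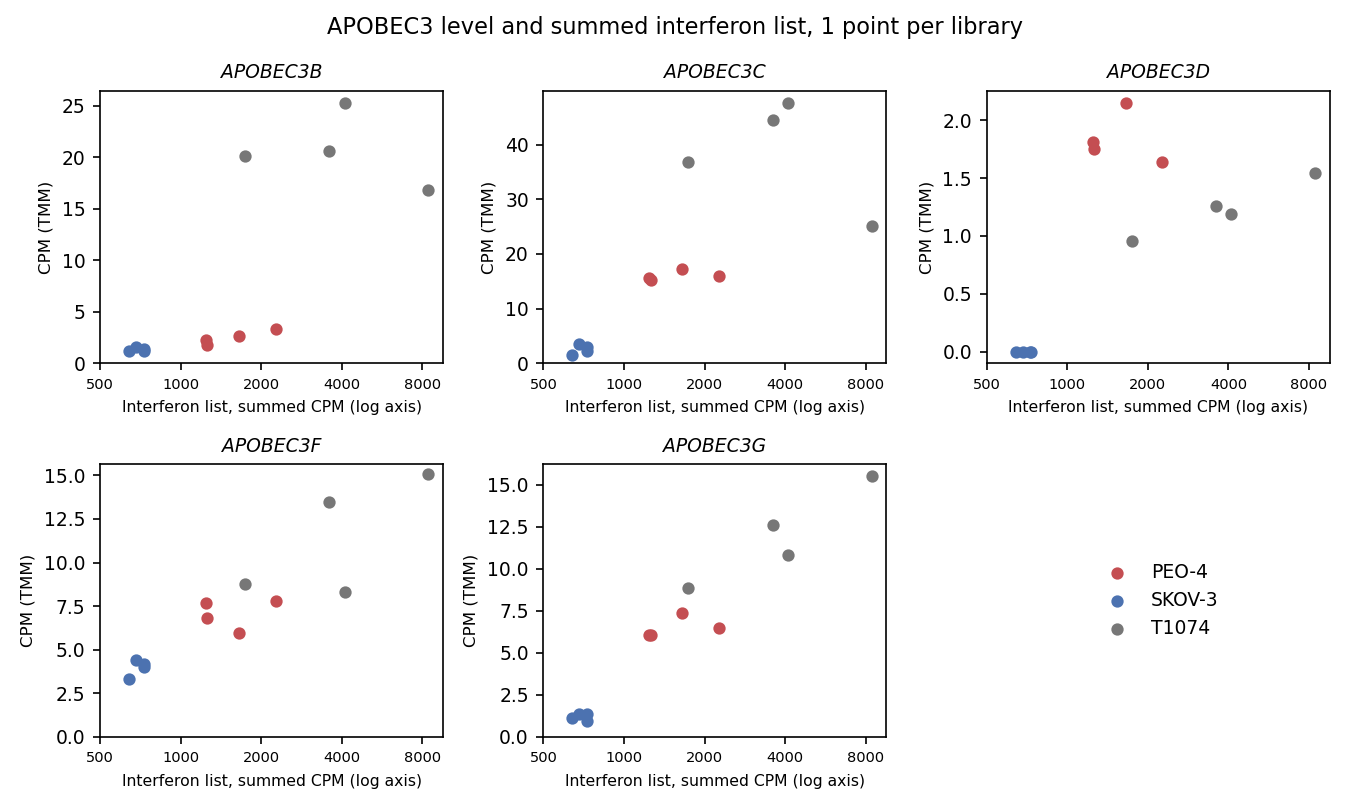
CPM of each tested APOBEC3 gene (vertical, linear) against the summed CPM of 22 interferon response genes (horizontal, log axis), with 1 point per library. The 4 T1074 libraries range between 1740.2 and 8416 CPM on the horizontal axis. The T1074 library farthest to the right has the highest APOBEC3G (15.5 CPM) and the lowest APOBEC3B (16.9 CPM) of its line.

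Among 14 other restriction factors, 7 were lower and 1 higher in PEO-4 against T1074 (median -0.53), where 74.1% of all genes differed. In SKOV-3 against T1074, 9 were lower and 1 higher (median -1.18), where 67.8% of all genes differed. In PEO-4 against SKOV-3, 6 were higher and 4 lower (median 0.22), where 75.2% of all genes differed. SAMHD1, which depletes the nucleotides needed for reverse transcription, had 20.7 ± 3.71 CPM in PEO-4 and 13.1 ± 2.61 CPM in SKOV-3 cells, against 241 ± 84.5 CPM in T1074 cells. MX2, an interferon-induced inhibitor of HIV, had 0.699 ± 0.486 CPM in PEO-4 and 0.112 ± 0.0668 CPM in SKOV-3 cells, against 141 ± 124 CPM in T1074 cells. Others did not follow this order. IFITM1 had 262 ± 12.9 and 6.41 ± 3.10 CPM in PEO-4 and SKOV-3 cells, against 203 ± 202 CPM in T1074 cells. TRIM22 had 1.95 ± 1.16 and 8.64 ± 2.79 CPM in PEO-4 and SKOV-3 cells, against 65.8 ± 37.1 CPM in T1074 cells. SLFN11 had 7.21 ± 1.31 and 39.3 ± 3.89 CPM in PEO-4 and SKOV-3 cells, against 81.4 ± 29.0 CPM in T1074 cells.

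APOBEC3B transcription is known to be held down by the RB family and the DREAM complex and raised by E2F and B-MYB, and SV40 large T antigen binds RB and p53. Of 20 genes of this group, 15 were lower and 2 higher in PEO-4 against T1074 (median -2.06) and 13 were lower and 3 higher in SKOV-3 against T1074 (median -1.02). In PEO-4 against SKOV-3, 4 were higher and 9 lower (median -0.35), and APOBEC3B was higher. The group holds both repressors and activators, so its counts have no single meaning for APOBEC3B. E2F1 had 13.1 ± 5.39 CPM in PEO-4 and 35.3 ± 12.4 CPM in SKOV-3 cells, against 144 ± 49.4 CPM in T1074 cells. MYBL2, which encodes B-MYB, had 31.4 ± 13.7 and 54.4 ± 21.4 CPM in PEO-4 and SKOV-3 cells, against 262 ± 57.2 CPM in T1074 cells. FOXM1 was 1 of the 4 that were higher in PEO-4 against SKOV-3. FOXM1 had 22.9 ± 7.02 and 10.6 ± 2.51 CPM in PEO-4 and SKOV-3 cells, against 144 ± 19.8 CPM in T1074 cells. Of the RB family, RBL1 had 8.91 ± 0.991 and 25.4 ± 2.52 CPM in PEO-4 and SKOV-3 cells, against 102 ± 20.0 CPM in T1074 cells. RB1 had 18.1 ± 1.44 and 153 ± 10.5 CPM in PEO-4 and SKOV-3 cells, against 128 ± 13.5 CPM in T1074 cells. RBL2 did not pass in any comparison. Of 10 genes of the p53 list, 6 were lower and 2 higher in PEO-4 against T1074 (median -0.54), 6 were lower and 3 higher in SKOV-3 against T1074 (median -0.91), and 3 were higher and 4 lower in PEO-4 against SKOV-3 (median 0.04). Protein kinase C and NF-kappa-B signalling can also induce APOBEC3B. Of its 14 genes, 8 were lower and 4 higher in PEO-4 against T1074 (median -1.49), 7 were lower and 2 higher in SKOV-3 against T1074 (median -0.36), and 4 were higher and 8 lower in PEO-4 against SKOV-3 (median -1.17). The part of these genes in the APOBEC3B difference was not tested.

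Of the 13 uracil excision and base excision repair genes, 9 were lower and 1 higher in PEO-4 against T1074 (median -0.57), 8 were lower and 3 higher in SKOV-3 against T1074 (median -0.76), and 3 were higher and 6 lower in PEO-4 against SKOV-3 (median -0.06). FEN1, the flap endonuclease, had 24.3 ± 3.40 CPM in PEO-4 and 37.5 ± 6.24 CPM in SKOV-3 cells, against 140 ± 30.2 CPM in T1074 cells. The other AID/APOBEC genes were nearly silent. Of 5, only APOBEC2 passed the filter, and it was higher in PEO-4 than in T1074 cells (log2 fold change 2.02) and than in SKOV-3 cells (1.91), and did not pass in SKOV-3 against T1074.

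Leukocytes are rich in several APOBEC3 members, so their markers were read in the same libraries. The 12 leukocyte markers summed to 3.44 to 3.66 CPM in PEO-4 and 1.72 to 6.92 CPM in SKOV-3 libraries, against 9.30 to 24.6 CPM in T1074 libraries. Of the 4 that passed the filter, 2 were lower and 2 higher in PEO-4 against T1074, 3 were lower in SKOV-3 against T1074, and 3 were higher and 1 lower in PEO-4 against SKOV-3. Markers at 0 included PTPRC and MS4A1 in PEO-4, CD3E, MS4A1 and SPI1 in SKOV-3, and NKG7 in T1074 libraries, and the defining leukocyte gene PTPRC averaged 0.115 CPM in T1074 cells. The monocyte and macrophage markers CD14 and CD68 were lower in both cancer lines. CD14 had 0.533 ± 0.0293 CPM in PEO-4 and 0.0812 ± 0.0203 CPM in SKOV-3 cells, against 4.73 ± 2.52 CPM in T1074 cells. CD68 had 1.10 ± 0.365 CPM in PEO-4 and 4.79 ± 2.36 CPM in SKOV-3 cells, against 10.4 ± 4.13 CPM in T1074 cells. Other markers on the list did not share this, as ITGAM, LYZ and SPI1 averaged 0.0310, 0.0125 and 0.0344 CPM in T1074 cells. The 2 markers higher in PEO-4 against T1074 were CD4 and CD8A. They averaged 0.706 and 1.13 CPM in PEO-4 cells, against 0.251 and 0.0234 CPM in T1074 cells. Of 7 epithelial markers, 4 were higher and 1 lower than in T1074 in each cancer line, and 4 were higher and 1 lower in PEO-4 against SKOV-3. Of 6 Muellerian and ovarian carcinoma markers, 4 were higher and 2 lower in PEO-4 against T1074, 5 were higher and 1 lower in SKOV-3 against T1074, and 3 were higher and 2 lower in PEO-4 against SKOV-3. Of 7 mesenchymal markers, 6 were lower and 1 higher in PEO-4 against T1074, 4 were lower and 2 higher in SKOV-3 against T1074, and 2 were higher and 4 lower in PEO-4 against SKOV-3. The part of these marker differences in the APOBEC3 levels was not tested.

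The genes beside the cluster were read in the same comparisons. Within 300 kb of either end, 19 of 39 annotated neighbours were tested. In PEO-4 against T1074, 16 were lower and 1 higher, where 37.8% of all genes were lower and 36.3% higher. Their median log2 fold change was -1.37, against -0.01 for all genes. In SKOV-3 against T1074, 11 were lower and 3 higher (median -0.54), where 34.5% of all genes were lower and 33.3% higher. In PEO-4 against SKOV-3, 13 were lower and 1 higher (median -0.69), where 36.7% of all genes were lower and 38.5% higher. The 5 tested APOBEC3 genes were all higher in that last comparison. On the APOBEC3A side, CBX6, a Polycomb gene, had 71.5 ± 19.3 CPM in PEO-4 and 146 ± 13.6 CPM in SKOV-3 cells, against 211 ± 28.5 CPM in T1074 cells. On the APOBEC3H side, CBX7, another Polycomb gene, had 9.58 ± 0.767 CPM in PEO-4 and 11.7 ± 1.24 CPM in SKOV-3 cells, against 24.9 ± 2.57 CPM in T1074 cells. NPTXR, the receptor of neuronal pentraxin, had 3.77 ± 0.545 CPM in PEO-4 and 111 ± 18.7 CPM in SKOV-3 cells, against 3.86 ± 0.665 CPM in T1074 cells. The ribosomal protein gene RPL3 was the neighbour that was higher in both cancer lines, with log2 fold changes of 1.13 in PEO-4 and 0.98 in SKOV-3 against T1074. DNA copy number was not measured here, and a cause shared by the region was not tested.

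**Figure D5:**
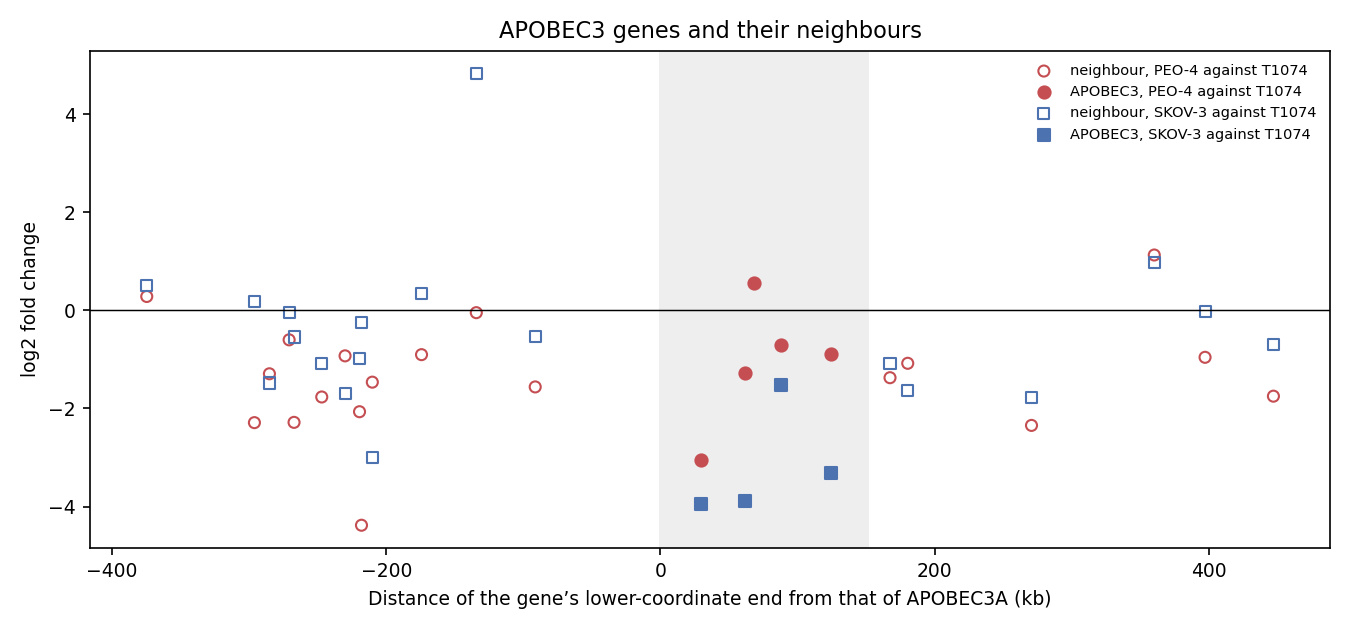
Log2 fold change against T1074 (vertical) of the tested APOBEC3 genes (filled) and their tested neighbours (open) by distance from APOBEC3A in kb (horizontal), for PEO-4 (circles) and SKOV-3 (squares). The shaded band is the 151 kb cluster. NPTXR is the open square at 4.83, and APOBEC3D in SKOV-3 cells is left out because its count was 0.

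Genes whose pattern was most like that of each member were found among 13173 protein-coding genes, by the root mean square difference of centred log2 CPM over the 12 libraries. The nearest to APOBEC3B were SYTL4 (0.29), RFTN1 (0.29) and TRIP13 (0.29), of which RFTN1 had 11.9 ± 1.20 CPM in PEO-4 and 5.34 ± 0.670 CPM in SKOV-3 cells, against 99.3 ± 21.0 CPM in T1074 cells. The nearest to APOBEC3C were COL4A5 (0.27), DZIP1 (0.30) and STON1 (0.33). The nearest to APOBEC3G were FKBP5 (0.20), UBE2G1 (0.24) and AGFG2 (0.26). APOBEC3F was closest to POMZP3 (0.13), COX10 (0.15) and PLPP6 (0.16), and APOBEC3D to TSPOAP1 (0.28), GSAP (0.31) and CDK18 (0.37). No member had another member among its closest 3. The most alike members were APOBEC3C and APOBEC3G, with a difference of 0.46. APOBEC3G ranked 24 for APOBEC3C, and APOBEC3C ranked 58 for APOBEC3G. These are descriptions over 12 libraries of 3 lines.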

How the data were processed

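Total RNA of 12 libraries was rRNA-depleted, made into strand-specific libraries and sequenced as 75-base read pairs. The authors trimmed reads with Trimmomatic 0.39 and counted with RSEM 1.3.1 and STAR 2.7.3a on hg38 with GENCODE 39. The deposited expected counts per transcript are RSEM's unnormalized estimates. The deposited TPM values correct for length, and the deposited FPKM and isoform percent columns were not used. The labels give the molecule as protein, but the files hold RNA-seq. Symbols came from GENCODE 44 by ID (61369 of 61533 matched). Counts were summed by gene, rounded, filtered with filterByExpr by line and scaled with TMM. The 12 libraries entered a common edgeR model (version 4.0.16, R 4.3.3), in which the lines share the spread. DESeq2 1.42.0 was an alternative, and the code was tested on simulated data. The 18 within-line pairs differed beyond sampling noise (chi-square per degree of freedom 23.2 to 300). Total counts were 19780836 to 55739060. Shares of the leading transcript were tested for members with a mean of at least 50 counts. Named genes are the members, their transcripts with a mean count of at least 10, neighbours within 300 kb, up to 5 genes of largest change per list (mean CPM at least 1), and the 3 genes most alike each tested member. APOBEC2, PTPRC, MS4A1, CD3E, CD4, CD8A, ITGAM, LYZ, SPI1, NKG7, KRT8, KRT18, COL1A2, RB1 and RBL2 fall outside that rule and were named after their values were seen. The members and the 11 lists were chosen with earlier results of these data known. The summed interferon list per library was added after the data were seen. The value of 1 listed marker gene is not reported here.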

Additional observations from a re-analysis of the deposited data

Results flagged for a closer look

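Among 18 groups of 4 libraries with values for the 7 members, 3 had 1 library far from the rest. In each of the 3 the other libraries were at 0 after rounding, so any count in the remaining library sets the flag. These flags therefore do not tell how unusual the library is. APOBEC3A was at 0.0410 CPM in SKOV-3 replicate 4 and at 0.0497 CPM in T1074 replicate 4, with the other 3 libraries of each line at 0. APOBEC3H was at 0.0249 CPM in T1074 replicate 4 and at 0 in the other T1074 libraries. Each of these values is 1 or 2 counts.

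The difference from T1074 was not the same in PEO-4 and SKOV-3 cells for all 5 tested members, by the test of PEO-4 against SKOV-3. The log2 fold change between the cancer lines was 2.61 for APOBEC3C, 2.43 for APOBEC3G, 0.90 for APOBEC3B and 0.82 for APOBEC3F. For APOBEC3D the fitted value was 9.30, which depends on the prior count because SKOV-3 cells had no count, and the bound is at least 30.4-fold.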

How the results depend on the processing

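No result changed direction in the 21 alternative settings of the gene fit. APOBEC3D in PEO-4 against T1074 lost its call with library size only (0.40), with no filter (0.60) and with length-scaled TPM (0.54), and leaving out a library gave 0.47 to 0.72. APOBEC3F in PEO-4 against SKOV-3 lost its call with length-scaled TPM (0.43). Library-size scaling moved the median of all genes to -0.17 in PEO-4 and -0.23 in SKOV-3 against T1074. Same-numbered libraries of different lines had correlations of -0.079 to 0.069 over 12 pairs, so the numbers do not pair them. With the replicate block, APOBEC3D in PEO-4 against T1074 was at 0.57 (adjusted p = 0.0715), and 5 APOBEC3 transcripts were called in place of 8, while leave-one-out fits gave 5 to 7. By expected counts in place of TPM, the leading shares were 46.9% for APOBEC3C in PEO-4 cells, 43.9% for APOBEC3F in SKOV-3 cells and 45.5% for APOBEC3C in T1074 cells. Depth limits APOBEC3A, APOBEC3H and the APOBEC3D transcripts.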
